A study of Mus musculus with 158 samples.

Results

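Kidney open chromatin was described from the 5 kidney hotspot sets among 20 DNase I hotspot sets, on the autosomes, and was set against the 15 sets of liver, lung and B cells. The sets came from F1 hybrids of C57BL/6J females with males of 5 strains or species. The father of B6x129 was of the inbred laboratory strain that the label names, and the others were C3H/HeJ mice for B6xC3H, the wild-derived CAST/EiJ for B6xCAST, PWK/PhJ males for B6xPWK, and SPRET/EiJ for B6xSPRET, so all nuclei shared a C57BL/6J genome copy and none was treated. Kidney, liver and lung were whole organs, both kidneys and all lobes of the others, usually pooled over several mice. All mice were 8 weeks old. B cells were enriched from femoral marrow of females by removing cells that carry CD43 or Mac-1/CD11b. The kidney sets held 37 of the 138 tissue DNase libraries (2 for B6x129, 8 for B6xC3H, 14 for B6xCAST, 8 for B6xPWK and 5 for B6xSPRET). Libraries were pooled before hotspots were called, so a set is 1 value per hybrid and tissue and the 5 hybrids are the repeats. Hotspots of the 20 sets that overlapped by 1 bp or more were merged into 714403 regions. A region was called kidney-only when all 5 kidney sets and none of the other 15 had a hotspot in it, which held for 14481 regions or 2.03% of all. A region that kidney lacks had a hotspot in all 15 other sets and in no kidney set, which held for 316 regions or 0.0442%.

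DNase I cuts DNA where nucleosomes are displaced, and a hotspot is a stretch with more cuts than its surroundings, as at active promoters and enhancers. The kidney filters blood in the glomerulus, whose podocytes form the filtration slits, and then adjusts the filtrate along the nephron. The proximal tubule takes back phosphate, glucose, amino acids and filtered protein, the thick ascending limb of the loop of Henle takes up salt, the distal and connecting tubules set calcium, magnesium and salt transport, and the collecting duct regulates water, acid and sodium. Nephron cells are specified and maintained by transcription factors such as Pax2, Pax8, Lhx1, the HNF1 and HNF4 factors and posterior Hox proteins. In the kidney as a bulk organ, a wider or stronger hotspot in each cell and more cells of a type cannot be told apart.

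Among the kidney-only regions, those within 1 kb of the start of a transporter or receptor gene of the nephron are shown first, because they lie closest to promoters of known kidney genes. Each line gives exon-free bases, at most 200, from the stretch common to the hotspots of all 5 kidney sets, read 5′ to 3′ along the gene from the mm10 (GRCm38) RefSeq sequence. Capitals mark matches, on either strand, to any of the 16 motifs searched, which are described with the motif results, and lower case marks all other bases.
Slc12a1, chr2:125152343-125152504, + strand: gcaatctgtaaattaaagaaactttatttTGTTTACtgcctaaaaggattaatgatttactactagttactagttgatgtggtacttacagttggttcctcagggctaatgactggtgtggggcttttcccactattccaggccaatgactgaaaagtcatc
Slc34a1, chr13:55399428-55399627, + strand: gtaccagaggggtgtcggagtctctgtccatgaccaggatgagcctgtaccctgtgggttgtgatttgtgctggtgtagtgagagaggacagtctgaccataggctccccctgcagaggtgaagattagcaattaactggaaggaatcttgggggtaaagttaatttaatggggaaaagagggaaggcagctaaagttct
Slc5a2, proximal, chr7:128265442-128265641, + strand: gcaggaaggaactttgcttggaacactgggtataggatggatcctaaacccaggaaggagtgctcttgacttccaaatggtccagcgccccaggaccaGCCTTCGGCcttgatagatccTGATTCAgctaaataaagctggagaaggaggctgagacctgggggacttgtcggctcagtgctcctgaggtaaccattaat
Slc5a2, downstream, chr7:128266120-128266319, + strand: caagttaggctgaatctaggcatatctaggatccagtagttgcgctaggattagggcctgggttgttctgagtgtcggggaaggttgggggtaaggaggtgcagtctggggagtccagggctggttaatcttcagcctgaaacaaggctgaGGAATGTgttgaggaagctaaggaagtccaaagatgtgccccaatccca
Cubn, chr2:13491923-13492122, - strand: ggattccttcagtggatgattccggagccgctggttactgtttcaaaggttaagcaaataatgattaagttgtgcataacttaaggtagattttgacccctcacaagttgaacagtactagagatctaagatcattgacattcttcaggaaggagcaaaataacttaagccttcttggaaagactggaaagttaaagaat
Slc7a9, chr7:35449887-35449988, + strand: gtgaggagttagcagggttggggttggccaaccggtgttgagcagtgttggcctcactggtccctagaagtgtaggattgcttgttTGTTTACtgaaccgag
Slc6a19, chr13:73701589-73701788, - strand: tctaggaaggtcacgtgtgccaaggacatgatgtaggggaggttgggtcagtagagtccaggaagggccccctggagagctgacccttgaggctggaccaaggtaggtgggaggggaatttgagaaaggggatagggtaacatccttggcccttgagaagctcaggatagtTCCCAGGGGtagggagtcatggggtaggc

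These 7 stretches belonged to 6 genes and followed the order of the gene lists. At most 8 were taken, in list order, so that regions of later genes such as Slc4a4, Kap, Ggt1 and Aqp2 that met the same rule are not shown, nor is every such region of the 6 genes. Regions of Slc34a3 and Slc22a12 were passed over because fewer than 100 exon-free bases were common to the 5 sets. Slc12a1, the Na-K-2Cl cotransporter of the thick ascending limb, had a region of 503 bp whose shown part ended just before the start and held a match to the FOX motif. In Slc34a1, the main phosphate cotransporter of the proximal tubule, the region measured 998 bp. The shown part was centred 165 bp before the nearest annotated start and held no match. Slc5a2, the glucose transporter SGLT2, had 1 region that spanned the start. Its shown part lay before the start and held TFAP2 and AP-1 matches. The shown part of the other Slc5a2 region was centred 544 bp after the nearest start and held a TEAD match. Slc6a19 encodes a transporter of neutral amino acids, and its shown part, upstream of the start, held an EBF match. In Slc7a9, part of the cystine transporter, the shown part was centred 768 bp after the nearest start and held a FOX match. The Slc7a9 region was the weakest of the 7, with a −log10 FDR from 1.48 in B6xC3H to 5.29 in B6xCAST. The region of Cubn, a receptor for filtered protein, held no match in the shown part and was strong, with a −log10 FDR from 14.7 in B6xSPRET to 52.6 in B6xPWK.

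The hotspot files hold no read counts, and the study's read totals per set were not used here, so the sets are described by the number and length of their hotspots, which do not measure depth. Kidney sets held 181072 to 232440 autosomal hotspots covering 62.1 to 83.1 Mb. Liver sets held 205195 to 286482, lung sets 147871 to 273104 and B cell sets 76055 to 151020. The B6x129 kidney set had the most kidney hotspots although it came from 2 libraries, and the B6xSPRET kidney set covered the least, 62.1 Mb against 77.2 to 83.1 Mb in the other kidney sets. A region called kidney-only may have open chromatin below the threshold elsewhere.

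Kidney had fewer tissue-only regions than liver and more than lung or B cells. The same rule gave 21898 liver-only, 10744 lung-only and 2433 B cell-only regions. Of the 115939 regions with a hotspot in all 5 kidney sets, 12.5% were kidney-only, against 18.7% in liver, 12.1% in lung and 5.00% in B cells. Regions that kidney lacks were more than those liver lacks (163) or lung lacks (59) and fewer than the 8329 that B cells lack. The kidney-only count is fixed by the rule and carries no test.

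**Figure D1:**
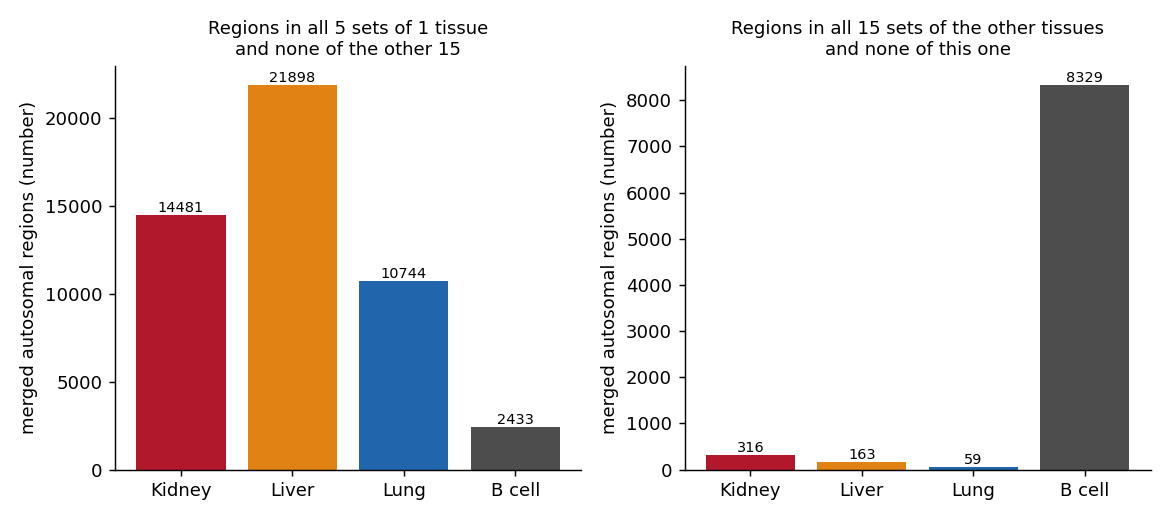
Bars give the number of merged autosomal regions with a hotspot in all 5 sets of the named tissue and in none of the other 15 sets (left), and in all 15 sets of the other tissues and none of the named tissue (right), 1 bar per tissue. Kidney has 14481 regions of its own, between liver (21898) and lung (10744), and lacks 316, far fewer than B cells (8329).

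Just outside the rule, 6855 regions had a hotspot in 4 kidney sets and in no other tissue, and 5153 had one in all 5 kidney sets and in exactly 1 of the other 15. The missing set of the former was B6xSPRET in 3493 cases, against 343 in B6x129, 535 in B6xPWK, 1215 in B6xC3H and 1269 in B6xCAST. The extra set of the latter was most often B6x129 liver, with 1420 regions, followed by B6xCAST lung with 964. Regions open in a single kidney set and nowhere else numbered 57837, of which B6xPWK held 14317, B6x129 14082 and B6xSPRET 6663. Kidney-only regions were of moderate strength, and their median −log10 FDR was 9.37 for the B6x129 kidney set, 7.36 for B6xC3H, 7.20 for B6xCAST, 10.3 for B6xPWK and 5.56 for B6xSPRET. The 27339 regions shared by all 20 sets had medians from 37.3 to 77.0 in the same 5 kidney sets. Only 1 kidney-only region reached the ceiling of 100 in all 5 kidney sets, against 4098 of the shared regions.

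Most kidney-only regions lay away from gene starts. Of the 14481, 6859 (47.4%) were intergenic, 6850 (47.3%) were in introns, 563 (3.89%) in exons and 209 (1.44%) within 1 kb of the start of a protein-coding transcript. Liver-only, lung-only and B cell-only regions had similar shares within 1 kb of a start, 1.42%, 1.42% and 1.32%. Regions shared by all 20 sets lay within 1 kb of a start in 34.6% of cases, and all merged regions in 3.75%. The median distance to a start was 45200 bp for kidney-only regions, 29559 bp for liver-only, 40952 bp for lung-only and 41615 bp for all regions. Kidney-only regions had a median width of 401 bp, with quartiles of 324 and 538 bp. A hotspot of B6xCAST embryonic stem cells overlapped 4.41% of them and a CTCF hotspot of those cells 1.65%, against 9.47% and 7.95% of all regions and 89.0% and 67.2% of the regions in all 20 sets. The liver-only, lung-only and B cell-only regions had stem cell DNase overlaps of 2.37%, 4.11% and 3.33%. Their CTCF overlaps were 1.96%, 1.31% and 2.22%, so low overlap was common to the tissue-only regions. Another kidney-only region lay within 10 kb of 29.5% of them, compared with 41.5% for liver-only and 24.1% for lung-only regions, whose numbers differ.

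The 4 kidney marker genes each had a hotspot within 1 kb of a start in all 5 kidney sets and at least 1 kidney-only region in their locus, taken as the gene and 10 kb on either side. Umod encodes uromodulin, the protein secreted by the thick ascending limb. Its locus, on the reverse strand of chromosome 7 (119462711 to 119479282 without the flanks), was covered by hotspots over 2258, 1606, 2707, 2629 and 1587 bp in the kidney sets, in the order B6x129, B6xC3H, B6xCAST, B6xPWK, B6xSPRET, which holds for all such series of 5 values. In liver it was covered over 875 to 1726 bp, in lung over 0 to 346 bp and in B cells over 0 to 198 bp, so kidney and liver overlapped while kidney and lung or B cells did not. The Umod start was open in 4 of 5 liver sets and in no lung or B cell set, and the kidney-only region lay upstream of the gene (119484184 to 119484574). In the locus fit described with the gene lists, Umod was higher in kidney than the mean of the other tissues by 2.25 ± 0.20 on the log2 scale (SE, limma, adjusted p = 6.14e-09).

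Slc12a1 was covered over 4869, 3258, 3274, 5744 and 2716 bp in the 5 kidney sets. Liver had 594 to 1894 bp, B cells 633 to 1211 bp and lung 1334 to 3660 bp, and lung overlapped the kidney range. Its 3 kidney-only regions were at the start and in introns 6367 and 12800 bp into the gene on chromosome 2. A hotspot near the start of this gene was found in 3 lung sets as well, but it did not merge with the kidney-only region. The log2 difference of the locus was 1.23 ± 0.15 (limma adjusted p = 3.57e-07).

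Slc34a1, on chromosome 13, was covered over 5199, 8528, 21971, 22124 and 8620 bp in the 5 kidney sets. The other tissues ranged from 1203 to 6066 bp, and only B6x129 kidney fell inside that range. Its kidney-only region was centred 1567 bp past the gene start, within 1 kb of a later annotated start. It reached a −log10 FDR of 100 in B6xCAST and B6xPWK and 22.7 in B6x129. At the gene start itself, B6x129 kidney had only a hotspot with a −log10 FDR of 1.51, and B6xC3H kidney had none. The locus was higher by 1.76 ± 0.22 on the log2 scale (limma adjusted p = 5.49e-07).

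Pax8, a paired-box factor required for nephron formation, was covered over 9269, 10725, 17964, 24123 and 6915 bp in the kidney sets. Liver had 3733 to 6614 bp, lung 1068 to 1679 bp and B cells 0 to 347 bp, and the kidney sets all lay above them. Its 4 kidney-only regions were intronic, 22222 to 47080 bp into the gene, and the strongest, at 24453070 to 24453684 on chromosome 2, had a −log10 FDR from 35.5 in B6x129 to 100 in B6xPWK. Between 22 and 37 kidney hotspots fell in the Pax8 locus, against 8 to 16 in liver, 4 to 7 in lung and 0 to 2 in B cells, and the log2 difference in covered length was 3.09 ± 0.23 (limma adjusted p = 4.74e-10).

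**Figure D2:**
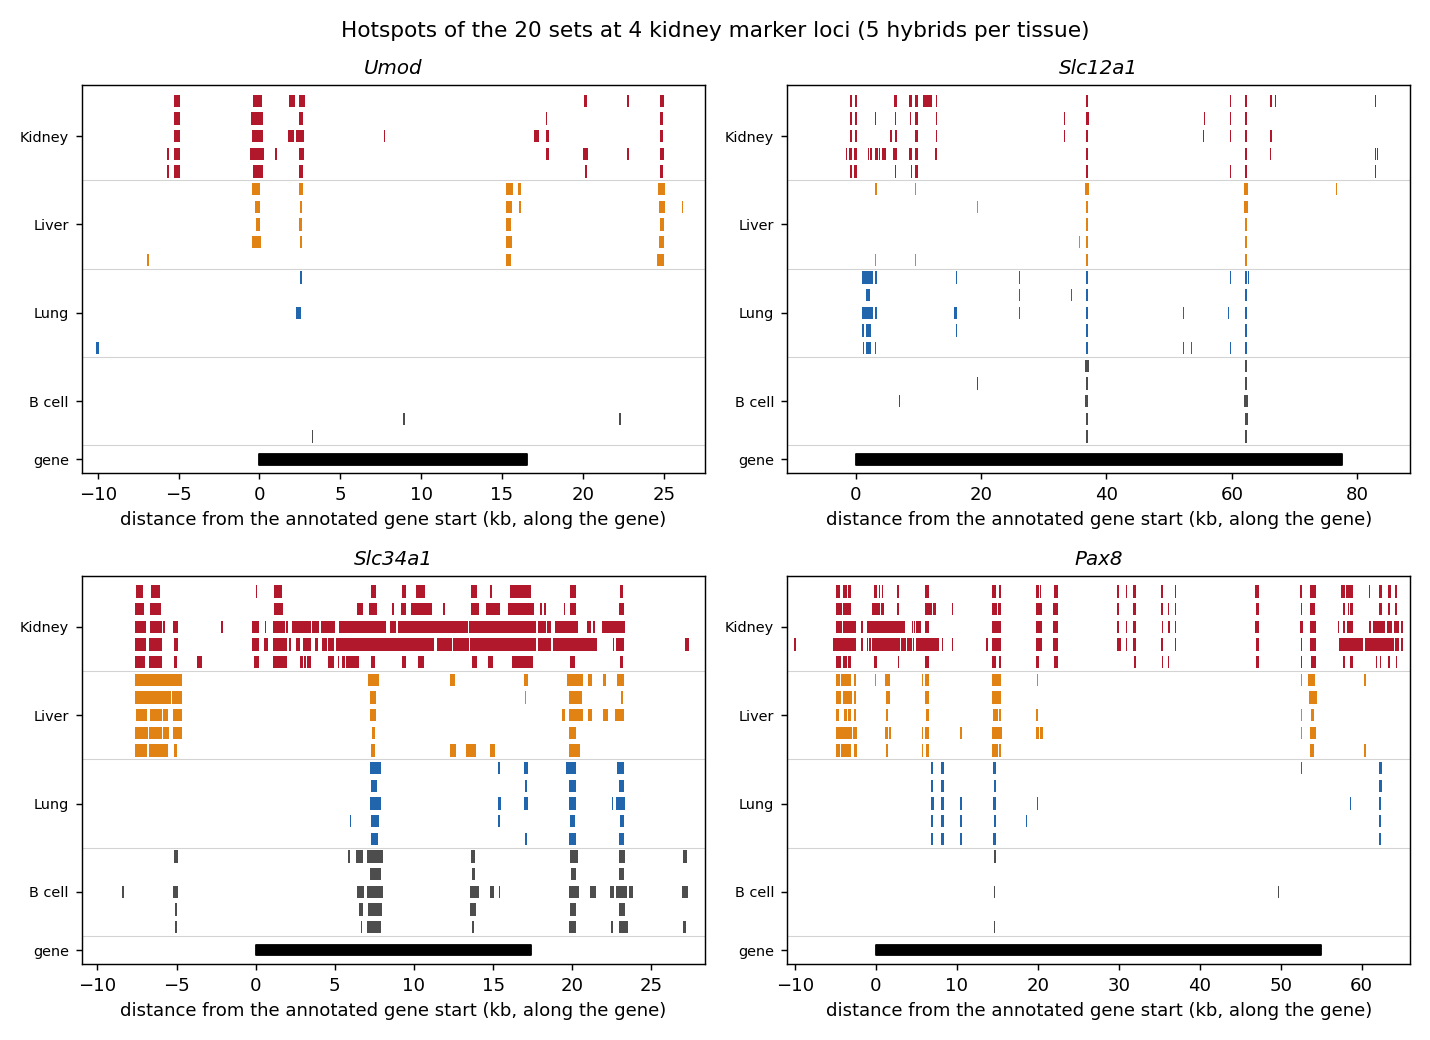
Each panel maps the hotspots of 1 kidney marker locus by distance from the annotated gene start (kb, along the gene), with 1 row per set in the order B6x129, B6xC3H, B6xCAST, B6xPWK, B6xSPRET within kidney, liver, lung and B cell, and the gene as a black bar. Kidney rows hold hotspots along Pax8 that the others lack, long hotspots of B6xCAST and B6xPWK kidney cover 21971 and 22124 bp of the Slc34a1 locus, and Slc12a1 has hotspots in every tissue.

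The kidney gene lists differed in how often their loci held a kidney-only region. Of the 105 genes in the 6 kidney lists, 72 (68.6%) had at least 1 in their locus and 213 were counted in all, where regions shared by neighbouring loci count for each. Over all 20807 protein-coding autosomal genes the share was 27.1% (5645 genes). Proximal tubule genes had the highest share, with 22 of 24 loci and 57 regions, followed by the loop of Henle with 12 of 14 loci and 35 regions. The distal and connecting tubule had 9 of 12 loci, the podocyte and glomerulus list 5 of 10, and the collecting duct, with 6 of 16 loci, was nearest to the background. Kidney transcription factors had 18 of 29 loci and 74 regions. Among lists of other cells, 1 of 15 hepatocyte loci, 1 of 11 lung epithelium loci, 2 of 13 B cell loci, 2 of 10 endothelial loci, 1 of 8 myeloid loci, 1 of 8 fibroblast and smooth muscle loci and 2 of 10 housekeeping loci held one. Long loci have more room for a region, and the lists were chosen with earlier results of these data known. These counts therefore describe the lists and were given no test.

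**Figure D3:**
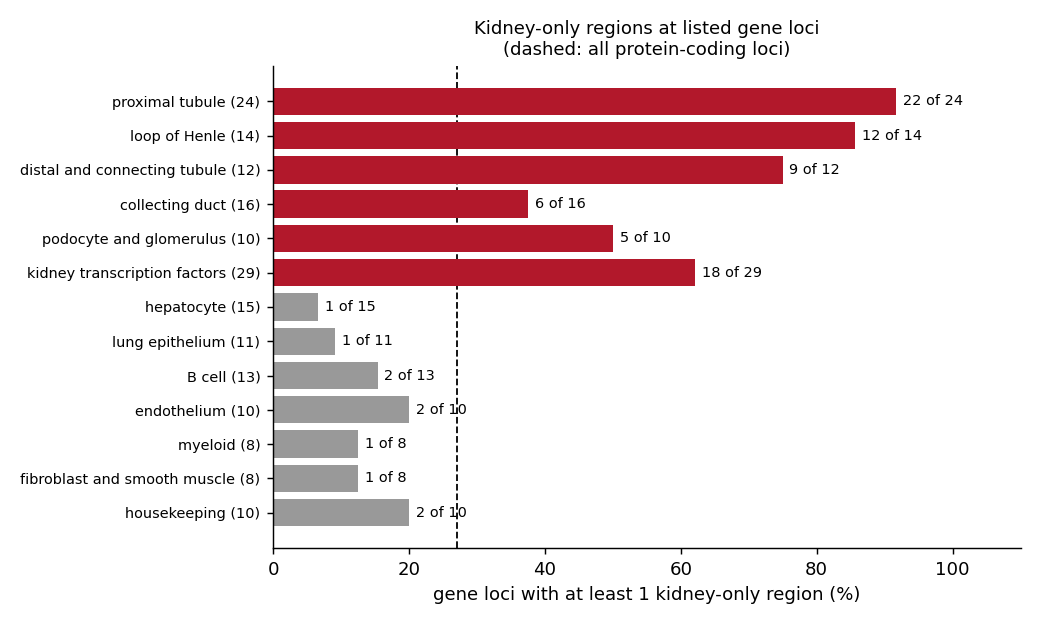
Bars give the percent of gene loci (gene and 10 kb either side) with at least 1 kidney-only region in each gene list, with the list size in parentheses, kidney lists in red and other lists in grey, and the dashed line at the 27.1% of all protein-coding loci. All 6 kidney lists lie above the line, from 6 of 16 collecting duct loci to 22 of 24 proximal tubule loci, and all 7 other lists lie below it.

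To compare loci by level, the covered length of each locus was divided by the covered length of its set and kidney was set against the mean of the 3 other tissues in limma. Of 20133 loci tested, 4487 (22.3%) were higher and 5459 (27.1%) lower in kidney at an adjusted p under 0.05, and the median log2 difference over all loci was -0.07. The split depended on the scaling: without it, with a pseudocount of 100 bp, the median was 0.13, 4237 loci were higher and 1341 lower, so 76.0% of calls were higher instead of 45.1%. Of the 105 kidney list genes, 82 were higher, 5 were lower and 18 had no call, with a median log2 difference of 0.96. The lists were chosen with earlier results of these data known, so the list counts are no independent check. For 32 of the 105 every kidney set lay above all 15 others on the scaled level, which held for 3.8% of all loci tested, and for none did every kidney set lie below, against 2.25% of all loci.

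Nearly all proximal tubule loci were high. The test called 22 of 24 higher and none lower, with a median log2 difference of 1.46, and between 21 and 23 were higher under the 12 alternatives. Kap, a kidney protein controlled by androgens, was covered over 2036, 1611, 1739, 1934 and 930 bp in the 5 kidney sets. It had no covered base in any liver or lung set and at most 68 bp in B cells, so the groups were apart in every hybrid. The log2 difference was 2.97 ± 0.12 (SE, limma on log2(value + 3), adjusted p = 9.46e-14). Every liver and lung value was 0, so the size of this difference depends on the pseudocount. Those sets also add no spread to its SE. Slc7a9 was covered over 3924, 3241, 4437, 5389 and 4018 bp in the 5 kidney sets and over at most 1601 bp elsewhere, a log2 difference of 3.03 ± 0.22 (adjusted p = 3.16e-10). Slc5a12, a lactate transporter, was covered over 1661 to 3245 bp in kidney and over at most 488 bp elsewhere. Slc6a19 had 7 kidney-only regions, the most of the list, and 7092 to 8475 covered bp in kidney against 831 to 3212 bp elsewhere.

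Some transporter loci of the proximal tubule list were called higher against the 3-tissue mean while liver had as much covered length or more. A locus includes 10 kb on either side of the gene, so covered bases do not show that the gene itself was used. Slc22a6, an organic anion transporter, had 2879 to 3500 bp in kidney and 4768 to 9811 bp in liver, with a log2 difference of 1.67 ± 0.17 (adjusted p = 4.38e-08). Slc4a4, the bicarbonate cotransporter, had 16879 to 23379 bp in kidney and 25100 to 37525 bp in liver. A call of higher therefore places kidney above the mean of the 3 tissues and not above each of them. Cubn had no call, with a log2 difference of -0.12 ± 0.11 (adjusted p = 0.401), with 6201 to 9090 bp in kidney beside 7452 to 17539 bp in lung, and its start was open in all 5 kidney sets, in 1 lung set and in no other.

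In the loop of Henle list, 11 of 14 loci were higher, 1 was lower and 2 had no call. Bsnd encodes barttin, a chloride channel subunit. It was covered over 4234, 3369, 4415, 4584 and 3205 bp in the kidney sets and over 256 to 1611 bp in the other 15, a log2 difference of 1.74 ± 0.17 (adjusted p = 1.82e-08). Cldn16, a claudin of the paracellular magnesium path, was covered over 1396 to 2461 bp in kidney and at most 428 bp elsewhere. Cldn14 was the list's lower locus, at -0.70 ± 0.12 (adjusted p = 4.58e-05), with 2656 to 5076 bp in kidney against 5761 to 14977 bp in liver. Kcnj1, the potassium channel ROMK, had 4 kidney-only regions and no call in level, at -0.05 ± 0.11 (adjusted p = 0.751).

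Further along the nephron the lists were less uniform. The distal and connecting tubule had 9 of 12 loci higher and 1 lower. Fxyd2, the gamma subunit of the sodium pump, was covered over 13098, 22145, 14638, 20763 and 5647 bp in the kidney sets against 1672 to 3643 bp in the other 15, a log2 difference of 2.19 ± 0.17 (adjusted p = 4.26e-10). Slc12a3, the thiazide-sensitive cotransporter, had a log2 difference of 0.29 ± 0.12 and missed the threshold (adjusted p = 0.0551). Wnk1, a kinase expressed in most tissues, was lower at -0.33 ± 0.11 (adjusted p = 0.0147), and its locus also held 1 region that kidney lacks, as did 1.29% of all gene loci.

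In the collecting duct list 7 of 16 loci were higher and 2 lower, nearer to the background than the other nephron lists. Aqp2, the water channel regulated by vasopressin, had a kidney-only start and 3 kidney-only regions. Its locus was covered over 2299, 3099, 2910, 2033 and 2103 bp in kidney but over 2053 to 7077 bp in lung, so in level kidney and lung overlapped. Its log2 difference from the 3-tissue mean was 1.38 ± 0.18 (adjusted p = 1.22e-06). The proton pump subunit Atp6v1g3 also had a kidney-only start while its locus was lower, at -0.89 ± 0.19 (adjusted p = 4.22e-04), with 531 to 1176 bp in kidney against 1333 to 5508 bp in B cells. Rhcg, an ammonia channel, had a kidney-only start and 1699 to 2608 bp in kidney, overlapping 1003 to 2297 bp in liver.

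In the podocyte and glomerulus list 6 of 10 loci were higher and 1 lower. Magi2, a scaffold of the slit diaphragm with a long gene, had 14 kidney-only regions. Ren1, the renin gene, was the lower locus, at -1.09 ± 0.13 (adjusted p = 2.72e-07), with 1207 to 2597 bp in kidney against 6932 to 14351 bp in liver. Its start had no hotspot in any kidney set. Some mouse strains carry another, near-identical renin gene that C57BL/6J lacks. Whether reads of the crossed strains were misplaced here was not tested, and the value is uncertain.

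**Figure D4:**
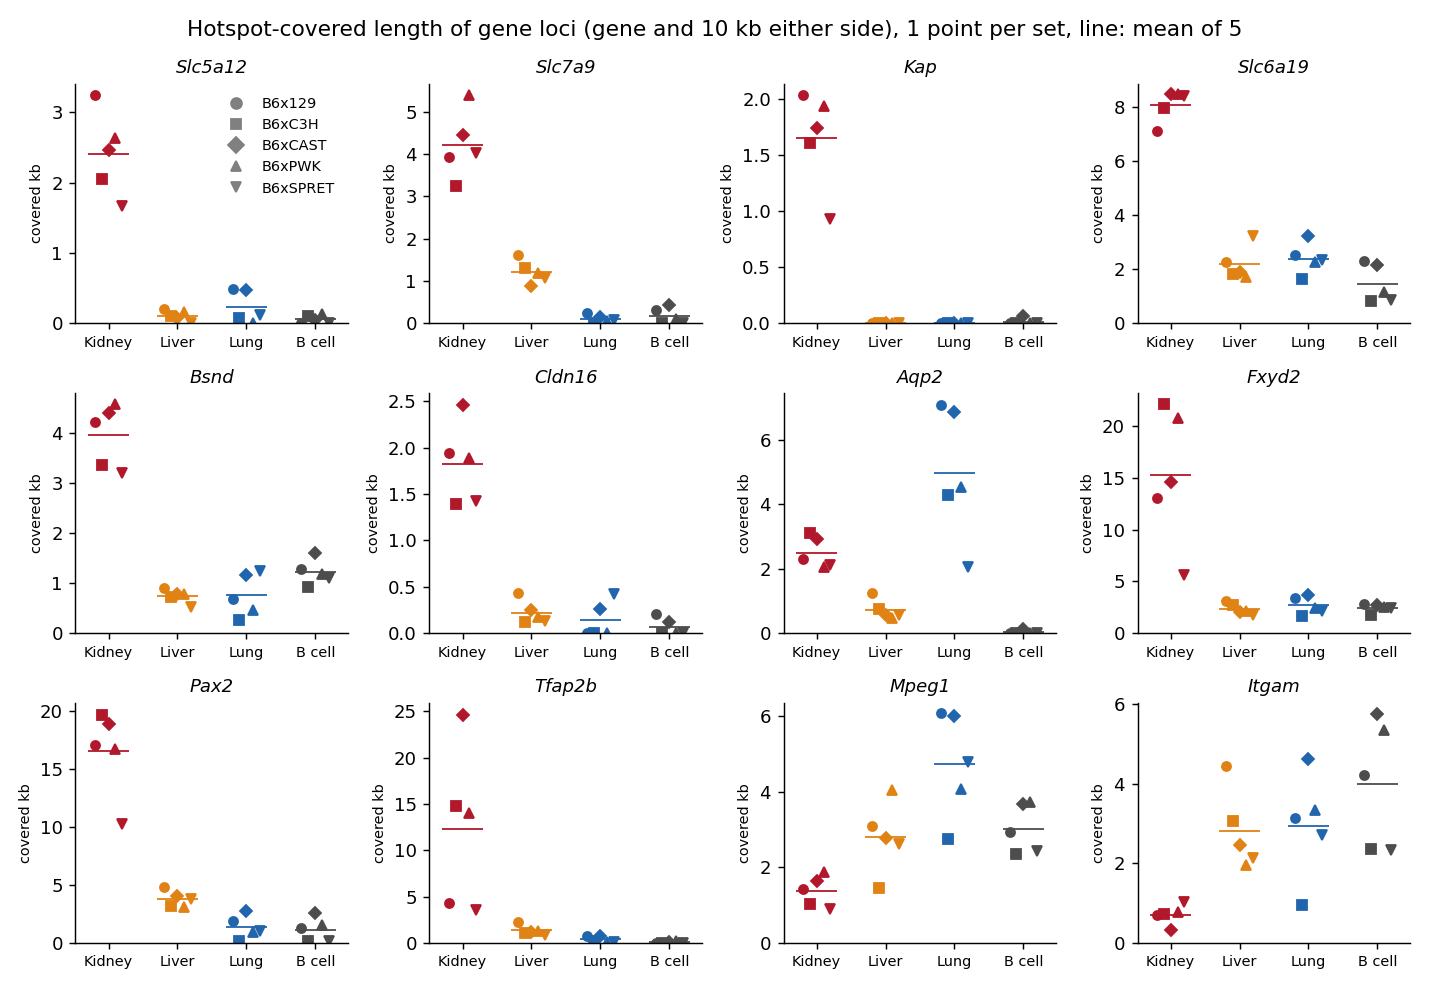
Each panel plots the length (kb) covered by hotspots in 1 gene locus for the 20 sets, with 1 point per set, symbols for the 5 hybrids and a line at the mean of each tissue. The 5 kidney points lie above the others for Slc5a12, Slc7a9, Kap, Slc6a19, Bsnd, Cldn16, Fxyd2, Pax2 and Tfap2b, overlap with lung for Aqp2, and are low for Mpeg1 and Itgam, overlapping liver for Mpeg1 and lung for Itgam.

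Transcription factors of the kidney included the largest differences of all loci. All 29 in the list had a hotspot within 1 kb of a start in all 5 kidney sets, and none of these starts was kidney-only. In level, 27 of 29 loci were higher and none lower, with a median log2 difference of 1.48. Tfap2b, an AP-2 factor of the distal nephron, had the largest log2 difference of all loci tested, 4.02 ± 0.31 (adjusted p = 6.49e-10). It was covered over 4273, 14828, 24629, 13975 and 3522 bp in the 5 kidney sets, and over at most 2282 bp elsewhere. The kidney sets thus differed among themselves by several fold and still lay above all others. Pou3f3 followed at 3.76 ± 0.42, with 26508, 25718, 21621 and 23164 bp in B6xC3H, B6xCAST, B6xPWK and B6xSPRET kidney. In B6x129 kidney it had 1796 bp, within the range of 140 to 3877 bp of the other tissues. Pax2 was covered over 17132, 19720, 18941, 16728 and 10265 bp in the kidney sets and over at most 4792 bp elsewhere.

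Other factors of the list had dense intronic regions. Esrrg, an orphan nuclear receptor, had 19 kidney-only regions and a log2 difference of 2.05 ± 0.14 (adjusted p = 8.18e-11), although liver, with 31049 to 50262 bp, covered as much of it as kidney, with 25075 to 37168 bp. Mecom had 11 and Esrrb 9. Hnf4a, shared with liver, was higher than the 3-tissue mean by 0.96 ± 0.10, while liver held 18023 to 34561 bp of it against 6891 to 11095 bp in kidney. Gata3 and Osr2 had no call, at 0.15 ± 0.36 and -0.03 ± 0.27, and both varied widely between the kidney hybrids, from 937 to 11236 bp and from 1940 to 11527 bp. The Hox genes Hoxb2, Hoxa9 and Hoxd9 were also among the 10 largest differences, at 3.63 ± 0.40, 3.37 ± 0.17 and 3.13 ± 0.24. The remaining loci of the 10 were Fut9, Mep1a, a metalloprotease of the brush border, Wfdc15b, Pax2 and Folh1, with log2 differences from 3.13 to 3.48.

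Lists of other cells in or near the kidney were measured in the same fit. The endothelial list had 7 of 10 loci higher and 2 lower, the fibroblast and smooth muscle list 4 of 8 higher and 1 lower, and the housekeeping list none of 10 higher and 4 lower. The myeloid list had 1 of 8 higher and 5 lower, the B cell list none of 13 higher and 9 lower, the lung epithelium list 2 of 11 higher and 8 lower and the hepatocyte list 4 of 15 higher and 8 lower. With the 75000 highest-scoring hotspots per set, 3 B cell and 2 housekeeping loci were higher. Fga, a fibrinogen chain made by hepatocytes, was among the 4 hepatocyte loci called higher, with 1670 to 2192 bp in kidney, 15671 to 22113 bp in liver and at most 307 bp in lung and B cells. All 10 endothelial and all 8 fibroblast and smooth muscle genes had a start open in all 5 kidney sets, and the part of these cells in the kidney counts was not tested.

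At gene starts, the strict rule left 70 genes, 0.336% of 20807, with a hotspot within 1 kb of a start in all 5 kidney sets and in none of the other 15. Of these, 11 were in the kidney lists, among them Aqp2, Atp6v1g3, Cldn19, Ggt1, Kap, Rhcg, Slc34a1, Slc34a3 and Slc5a2. The 11 are genes of the proximal tubule, the loop of Henle and the collecting duct, and no distal tubule, podocyte or transcription factor gene was among them. By comparison, 126 genes were open at the start in liver only, 53 in lung only and 3 in B cells only, and 10859 were open in all 20 sets. Chosen after the values were seen, further genes with a kidney-only start were Slc5a10, Slc6a18, Slc22a22 and Slc51a, which encode transporters, Dao, which encodes the D-amino acid oxidase of the proximal tubule, Hoxa9 and Hoxb8, and the beta-defensin genes Defb2, Defb9, Defb13, Defb20 and Defb42. Of the 105 kidney list genes, 95 had a start open in all 5 kidney sets and 18 a start open in all 20 sets.

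The loci with the most kidney-only regions were long annotated spans. The read-through model Gm20388, which spans many genes over 4455 kb of chromosome 8 with its flanks, held 48. It was followed by Fgfr2 (31), Auts2 (22), Glis3 (22), Lrmda (21), Erc2, Esrrg and Pde4d (19 each) and Mast4 and Tenm2 (17 each). Per 100 kb, Glis3, a zinc finger factor whose loss gives cystic kidneys, stood highest of the 10 at 4.99, against 1.04 for Fgfr2, whose annotated locus spans 2981 kb, far beyond the usual Fgfr2 gene, so that its 31 regions may lie in or near other genes. Glis3 held 3 liver-only, 1 lung-only and no B cell-only regions, while Fgfr2 held 21, 30 and 7. Of the 2473 windows of 1 Mb, 2158 held at least 1 kidney-only region, with a mean of 5.86 over all. The highest count was 30, in 28000001 to 29000000 on chromosome 19, where Glis3 lies with Rfx3 and Slc1a1. The next were 28 in 70000001 to 71000000 on chromosome 10, with Ank3 and Bicc1, a gene mutated in mice with polycystic kidneys, 25 in 84000001 to 85000000 on chromosome 4, with Bnc2 and Cntln, 25 in a window on chromosome 18 with Fhod3 and Galnt1, and 24 in 107000001 to 108000000 on chromosome 4, with Ssbp3, Glis1 and Dio1. By chromosome the density ran from 5.19 per Mb on chromosome 12 to 7.21 per Mb on chromosome 11.

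The regions that kidney lacks were fewer, wider and mostly away from starts. Their median width was 983 bp, 50.3% of the 316 were intronic, 41.1% intergenic and 7.28% within 1 kb of a start. That share near starts was above the 1.44% of kidney-only regions and the 3.75% of all regions. The regions merge hotspots of 15 sets and kidney-only regions those of 5, so their widths are not directly comparable. Regions in all 20 sets had a median width of 1212 bp. They touched 268 gene loci, 1.29% of all. The median over regions of the lowest −log10 FDR among the 15 sets was 2.13, near the threshold. Leaving out B6xC3H, whose B cell set was the smallest, raised the count to 763, and leaving out B6xSPRET raised it to 501, where fewer sets had to meet the rule. The strongest was at 117133281 to 117135122 on chromosome 5, 607 bp from a start of Taok3, with a −log10 FDR of at least 20.1 in every other set. Others among the 10 strongest were nearest to Birc3, an inhibitor of apoptosis induced by inflammatory signals, Itih3, Atp2a3, Ctse, Abhd17c, Sun1, Ankrd33b, Hnrnpf and Gm11084. Zeb2 was the nearest start for 3 of the 316 and 16 other genes for 2 each, among them Oas3, Irf2, Prkcq and Rasgrp1.

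At gene starts, 16 genes (0.0769%) were open in all 15 other sets and in no kidney set, and several are known from immune cells. They were Ctse, Dhrs9, Fcmr, the Fc receptor for IgM, Gna15, a G protein subunit of blood cells, Gpr55, Lilra6, Mpeg1 and Prf1, which encode perforins of macrophages and cytotoxic lymphocytes, Oas3, induced by interferon, Pglyrp1, which binds bacterial peptidoglycan, Pld4, Slpi, Tmem156, Wfdc21, 4930518I15Rik and B430306N03Rik. Mpeg1 was covered over 1411, 1039, 1628, 1860 and 897 bp in the kidney sets, over 1453 to 4037 bp in liver, 2735 to 6073 bp in lung and 2342 to 3722 bp in B cells. Kidney and liver overlapped there, and the log2 difference was -1.42 ± 0.16 (adjusted p = 1.74e-07). Itgam, the CD11b integrin used in B cell enrichment to remove other cells, had 324 to 1020 bp in kidney and a log2 difference of -2.05 ± 0.19 (adjusted p = 6.90e-09), while its start was open in all 5 B cell sets. Csf1r went the other way, with 4245 to 6565 bp in kidney, 4 kidney-only regions and a log2 difference of 0.84 ± 0.16 (adjusted p = 1.63e-04), although no kidney set had a hotspot within 1 kb of its start and liver and B cell ranges reached into that of kidney.

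Among the 10 loci with the largest lower differences, Gpr171 had no covered base in any kidney set, 1000 to 2729 bp in liver, 484 to 1283 bp in lung and 1198 to 3518 bp in B cells, and it is listed at 0 in kidney with no fold. Slamf6, a receptor of lymphocytes, had 78, 204, 270, 336 and 150 bp in the kidney sets and 1223 bp or more in each other set, a log2 difference of -3.22 ± 0.12 (adjusted p = 4.50e-14). Cd84, Pld4, Treml2, Tnfrsf13c, Ms4a6c, Ms4a4c and Gm8369 had at most 702 bp in any kidney set. For Tnfrsf13c, kidney (0 to 702 bp) overlapped liver (94 to 2197 bp) and lung (511 to 2189 bp). The tenth, Tdo2, a liver enzyme of tryptophan breakdown, had 3799 to 23536 bp in liver against 0 to 421 bp in kidney. Lung had 0 to 1252 bp and B cells 240 to 707 bp of it, and both overlapped kidney. Where 2 of the other tissues were open in all 5 sets and the third and kidney in none, 2149 regions were of liver and lung, 473 of lung and B cells and 67 of liver and B cells.

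Sequence was not used to choose the regions, so the hotspots a kidney set did not share with the 3 other tissues of its own hybrid, its own hotspots, were examined for it. There were 58897 (B6xSPRET) to 78857 (B6xPWK) of these per kidney set, or 28.2% to 37.8% of its autosomal hotspots. None of 6 features (0%) differed from the other 15 sets after adjustment by an exact two-sided permutation test over all ways to choose 5 of the 20 sets, and 3 did at an unadjusted p under 0.05. The share in introns was 46.7% ± 0.58 (SD, n = 5) in kidney and 48.5% ± 1.51 (n = 15) elsewhere (permutation adjusted p = 0.0724). With hotspots at FDR 1% or with the 75000 highest-scoring per set, the intron share was lower in kidney by 2.68 and 3.23 percentage points (adjusted p = 7.74e-04 and 3.87e-04), and over the 8 alternatives the adjusted p ran up to 0.179. The share overlapping stem cell DNase hotspots was 5.87% ± 1.18 against 4.41% ± 1.15 (permutation adjusted p = 0.0724), and the soft-masked repeat share of the central 200 bp was 15.2% ± 1.08 against 19.04% ± 3.82 (permutation adjusted p = 0.0858). The share within 1 kb of a start, the overlap with stem cell CTCF and the GC content had unadjusted p of 0.529, 0.779 and 0.855.

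The 16 motifs were searched on both strands in the central 200 bp of each own hotspot, and matches of different motifs may overlap. They were HNF1 (GTTAATNATTA), HNF4 (CAAAGTCCA), ESRR (TCAAGGTCA), PAX (GTCACGC), the GATA family (AGATAAG), TFCP2L1 (CCAGNNNNNNCCAG), TFAP2 (GCCNNNGGC), TEAD (ACATTCC), AP-1 (TGANTCA), HOX (TTTATGG), steroid receptor (AGAACANNNTGTNCT), FOX (TGTTTAC), CEBP (TTGCGNAA), ETS PU.1 (GAGGAAGT), EBF (CCCNNGGGA) and NFI (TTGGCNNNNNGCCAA). A match describes letters and does not show that a factor was bound. The share of own hotspots with a match differed for 11 of 16 motifs (68.8%) at a permutation adjusted p under 0.05, of which 9 were higher and 2 lower in kidney. The other 15 sets are of 3 tissues, so the test sets kidney apart from their mix, and the ranges per tissue show where the difference lies. The permutation treats all sets as exchangeable, although sets of the same tissue often lie close together. Matches were read from the same reference bases in every hybrid, and many kidney hotspots recur between hybrids. The motif p-values and the count of motifs called therefore do not measure spread between independent repeats.

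HNF1 and HOX motifs set kidney apart from each other tissue. The HNF1 match was in 0.483%, 0.438%, 0.386%, 0.406% and 0.455% of the own hotspots of B6x129, B6xC3H, B6xCAST, B6xPWK and B6xSPRET kidney. Liver had 0.127% to 0.243%, lung 0.0160% to 0.0308% and B cells at most 0.0627%, and no set overlapped the kidney range. The kidney mean was 0.434% ± 0.0386 (SD, n = 5) against 0.0796% ± 0.0857 (n = 15), with an exact permutation p of 6.45e-05, the smallest this design can give, and an adjusted p of 5.16e-04. The HOX match, of posterior homeodomain proteins, was in 3.24% to 3.59% of kidney own hotspots against 2.01% to 2.26% in liver, 1.98% to 2.37% in lung and 2.01% to 2.61% in B cells, again without overlap and with the same p. In kidney-only regions, 92 of 14481 (0.635%) held the HNF1 match and 568 (3.92%) the HOX match, against 0.156% and 2.53% of all merged regions over the same length.

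Other motifs were shared with 1 other tissue. HNF4 was in 1.20% to 1.57% of kidney own hotspots and 1.01% to 1.42% of liver ones, but in at most 0.204% in lung and B cells (adjusted p = 0.00791). Without B6x129 the adjusted p was 0.0527, and over the 9 alternatives it ran from 0.00227 to 0.0527. TEAD was in 5.17% to 6.07% in kidney and 5.19% to 6.29% in lung, against at most 2.76% in liver and 1.97% in B cells (adjusted p = 0.0277), and with permutation within hybrids, the replicate block, its adjusted p was 0.0563, within a range of 0.0391 to 0.0887 over the 9 alternatives, 3 of which kept it past the threshold. TFCP2L1, a factor of the collecting duct, was in 2.74% to 3.27% in kidney, and 1 lung set, B6xCAST at 3.08%, reached into that range (adjusted p = 0.00413). PAX was in 0.611% to 0.720% in kidney, and 2 B cell sets, B6xC3H at 0.642% and B6xSPRET at 0.682%, reached into that range (adjusted p = 0.00764). In the strict regions PAX did not set kidney apart. It was in 0.746% of kidney-only, 0.745% of lung-only, 0.904% of B cell-only and 0.416% of liver-only regions. Regions in all 20 sets held it in 1.01% of cases. TFAP2, the GC-rich AP-2 site, was in 5.74% to 6.84% in kidney against 4.87% to 5.29% in liver, 4.94% to 6.37% in lung and 2.89% to 4.95% in B cells (adjusted p = 0.00973), with B6xCAST lung inside the kidney range. Of kidney-only regions, 3.09% held TFCP2L1 and 6.22% TFAP2. The other tissue-only regions held them in 1.27% to 2.38% and 3.45% to 5.04%. Regions in all 20 sets held them in 3.11% and 11.1%, as often or more often than kidney-only regions.

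GATA and CEBP were the motifs called lower in kidney. GATA was in 1.93% to 2.36% of kidney own hotspots against 3.75% to 3.91% in liver, 3.41% to 4.20% in lung and 2.28% to 2.74% in B cells (adjusted p = 0.00103), so kidney and B cells overlapped slightly. CEBP was in 0.158% to 0.187% in kidney and 0.1203% to 0.186% in B cells, against 0.504% or more in liver and lung. Its adjusted p was 0.0369, and 0.0682 with the replicate block, within a range of 0.0179 to 0.104 over the alternatives. The steroid receptor and NFI motifs were rare, in 0.0696% ± 0.0124 and 0.151% ± 0.0756 (SD, n = 5) of kidney own hotspots, and were called higher (permutation adjusted p = 0.0277 and 0.0263). Neither set kidney apart from each tissue. The steroid receptor range was 0.0571% to 0.0866% in kidney and 0.0510% to 0.0889% in lung. For NFI it was 0.0533% to 0.215% in kidney and 0.0401% to 0.230% in liver. The steroid receptor motif was past the threshold in 3 of 9 alternatives, with an adjusted p from 0.0254 to 0.431. NFI had an adjusted p of 0.0538 with the replicate block, with a range of 7.74e-04 to 0.141 over the alternatives, and only 1 kidney-only region held it. ETS PU.1, the site of a factor of B and myeloid cells, was in 1.47% to 1.69% in kidney, 1.15% to 1.59% in liver, 2.21% to 2.83% in lung and 6.67% to 9.10% in B cells, and was not called (adjusted p = 0.115). In the 316 regions that kidney lacks it was present in 34 (10.8%), against 2.51% of all regions and 1.31% of kidney-only regions. B cell-only regions held it in 10.2% of cases, and by the rule the 316 were open in all 5 B cell sets.

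**Figure D5:**
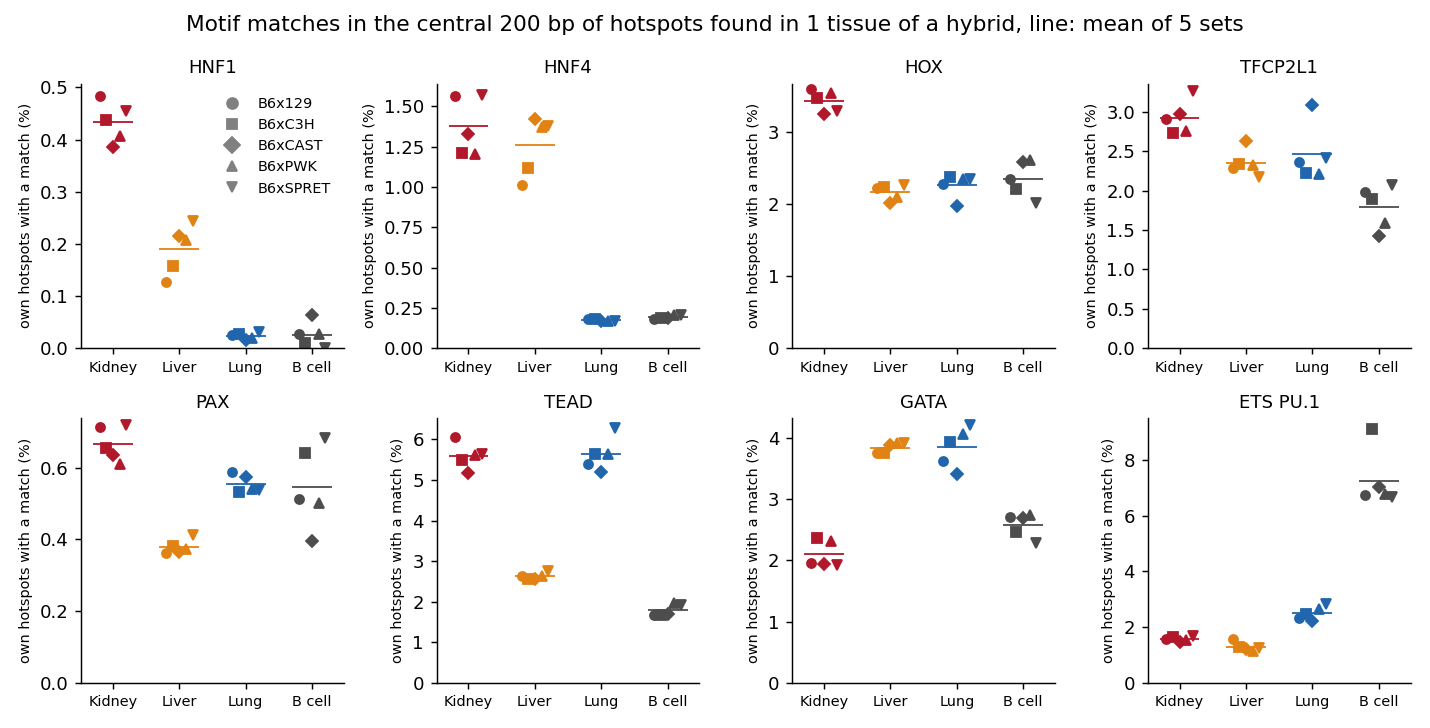
Each panel plots the percent of own hotspots with a motif match in the central 200 bp for the 20 sets, with 1 point per set, symbols for the 5 hybrids and a line at the mean of each tissue. Kidney stands above every other set for HNF1 and HOX, beside liver for HNF4 and beside lung for TEAD, and low, with B cells, for GATA.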

How the data were processed

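DNase I libraries of each hybrid and tissue were aligned to mm10 with BWA by the authors, who kept unique alignments, pooled the libraries of a set and called hotspots with hotspot2 at an FDR of 5%. The deposited tables list the hotspots with a −log10 FDR each, and no value exceeds 100. Per the labels, the submitters' processing notes name Trimmomatic, BWA, STAR and RSEM. The positions were used as deposited, on the autosomes, and are printed counted from 1. RNA tables were not used here, and some listed genes and 1 sequence are not reported here.

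Hotspots of the 20 sets were merged where they overlapped by 1 bp or more. Genes and starts were those of 20807 protein-coding genes of GENCODE vM21, and bases came from RefSeq GRCm38. Covered bp per locus were divided by the Mb covered in the set, a pseudocount of 3 was added, and log2 values of the 20133 loci covered in at least 3 sets were fitted with limma 3.58.1 (R 4.3.3, trend, 1 mean per tissue) with Benjamini-Hochberg adjustment, kidney minus the mean of 3 tissues. Own hotspots were compared by exact permutation with adjustment over 6 features and over 16 motifs. Python 3.11.15, numpy 2.4.6 and pandas 2.3.3 were used, and the locus fit and the permutation test were tested on simulated data.

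The same hybrid occurs in each tissue, which pairs the sets by cross. Deviations of locus levels from the tissue means had a mean correlation of 0.113 in the 30 pairs of the same hybrid and -0.0281 in the 120 pairs of different hybrids. The fits reported have no block. Since the hybrids are the repeats, the p-values of the locus fit measure the spread between pooled sets. In the permutation tests of own hotspots the sets are not independent. Sets of the same tissue resemble each other, and their sequence was read from the same reference.

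The named genes are those of the lists, the 10 loci with most kidney-only regions, the 10 called loci with the largest log2 difference in each direction with a mean of at least 1000 covered bp on the higher side, the 10 regions kidney lacks with the highest minimum score and the 5 windows of 1 Mb with most kidney-only regions. Members and lists were chosen with earlier results of these data known. The alternatives were FDR 1%, the 75000 highest-scoring hotspots per set, bases instead of merged regions, other pseudocounts, filters, scaling and flanks, a hybrid block and leaving out each hybrid.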

Additional observations from a re-analysis of the deposited data

Results flagged for a closer look

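Among the values of the 5 kidney sets, 30 were examined for a set far from the others, and 1 stood out: the B6xSPRET kidney set covered 62.1 Mb of the autosomes, against 77.2 to 83.1 Mb in the other 4. The gap was 0.718 of the whole range, past Dixon's critical value for 5 sets. Chance gives such a gap in about 1 of 20 groups. Leaving out B6xSPRET gave 18803 kidney-only regions, 501 regions that kidney lacks and 4173 loci higher in kidney.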

How the results depend on the processing

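Counts of regions depended on the hotspots used. With the 75000 highest-scoring hotspots per set there were 7001 kidney-only regions and 154 that kidney lacks, and with stretches of 50 bp or more of bases in place of merged regions 29780 and 553. At FDR 1% they were 13900 and 268. Leaving out each hybrid gave 15974 to 18803 kidney-only regions and 380 to 763 that kidney lacks. Without scaling, 1341 loci were lower in kidney, while the other alternatives gave 4134 to 5750 lower and, with all of them, 3940 to 4670 higher. With hybrid as the replicate block, 4670 loci were higher and 5750 lower, and no list count moved by over 1.5 times. Leaving out each hybrid gave 3940 to 4173 higher and 4517 to 5229 lower. The number of features past the threshold was 1 at FDR 1% and 1 with the 75000 highest-scoring hotspots, and 0 with each hybrid left out. Leaving out each hybrid gave 7 to 9 motifs past the threshold. It was 7 without B6x129 and 7 without B6xCAST, with fewer arrangements to permute, and 8 with the replicate block. That block, a permutation within hybrids, ended the call of TEAD, CEBP and NFI and changed no other motif or feature call. Of the 11 motifs called, 6 were past the threshold in every alternative. The absence of a hotspot means only that none passed the threshold, and how depth limits this was not tested.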

Other observations

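Families of genes were counted by symbol after the values were seen, and so carry no test. Over all 20133 loci tested, 22.3% were higher and 27.1% lower in kidney. Of all 20807 genes, 0.336% had a kidney-only start and 27.1% held a kidney-only region. Of 39 Hox loci, 36 were higher and none lower in kidney, with medians of the log2 difference of 2.42, 2.58, 1.66 and 2.55 in the a, b, c and d clusters, whose loci overlap. Neighbouring genes in these clusters share covered bases, and neighbours in the other families may do so too. The Slc5 and Slc34 families, which include sodium-coupled sugar and phosphate transporters among others, had 11 of 16 loci higher and none lower, and 5 of the 16 starts were kidney-only. Among organic ion transporters of the Slc22 family 18 of 25 were higher and 2 lower. Beta-defensin genes had 20 of 38 tested loci higher and none lower. Of 19 loci of the Ms4a family, expressed in B and myeloid cells, 14 were lower, none was higher, and none held a kidney-only region. Broader families were less one-sided. Of all 358 Slc loci, 133 were higher and 89 lower, with a median log2 difference of 0.08. The Cyp family had 29 of 100 higher and 35 lower, the Atp6v proton pump subunits 7 of 23 higher and 3 lower, and the claudins 12 of 22 higher and 1 lower. Olfactory receptor genes, given for comparison, had 112 of 981 tested loci higher and 74 lower, and 2.84% of the 1128 held a kidney-only region.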
